A study of Mus musculus with 12 samples.

Results

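The 10 genes described here mark type 2 conventional dendritic cells (cDC2) or act in their development: Sirpa, Itgam, Itgax, Notch2, Dtx1, Esam, Cd209a, Mgl2, Zbtb46 and Flt3. They were chosen by name and not by a rule on their values, but with earlier results of these data known. Their symbols were matched to the Ensembl identifiers of the deposited count table through the mouse GENCODE annotation. Each symbol matched 1 row, which makes 10 of 57009 rows, and all 10 had enough counts to be among the 14413 genes tested.

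RNA was sequenced from dendritic cells (DCs) of the mouse spleen in 12 libraries, 3 for each of 4 culture conditions of 3 h. In the AlloTem group the DCs were cultured with memory T cells from BALB/c mice that were specific for alloantigen, and in the SynTem group with syngeneic effector memory T cells of B6 mice. The LPS group received lipopolysaccharide, a bacterial cell wall component sensed through Toll-like receptor signalling, and the DC only group was cultured alone. The AlloTem and SynTem cultures therefore differed in the strain of the T cells as well as in their antigen specificity, and these cannot be told apart. In all 4 groups the DCs came from C57BL/6 mice that carried B16 melanoma cells secreting Flt3 ligand, the growth factor that expands DCs through the receptor encoded by Flt3. Beads were used to remove T, B and NK cells and macrophages, and after culture the DCs were sorted on CD11b and CD11c. These are the proteins of Itgam and Itgax, so the presence of those transcripts follows from the sort. The sources used here do not give the age and sex of the mice or the LPS dose.

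Conventional DCs arise from bone marrow precursors under Flt3 ligand and fall into a type 1 lineage (cDC1), which depends on the transcription factors IRF8 and BATF3, and a type 2 lineage, which uses IRF4. Spleen cDC2 carry CD11b and SIRPα on their surface and present antigen mainly to CD4+ T cells. A part of them receives Notch2 signals through RBPJ, and these cells are known for their ESAM expression and for Dtx1, a gene switched on by Notch. Mgl2 (CD301b) and Cd209a are C-type lectins of cDC2, Cd209a being also known from monocyte-derived DCs, while Zbtb46 and Flt3 are shared by cDC1 and cDC2.

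Total counts lay between 13903574 and 21861156 per library. A deposited table numbers the batches 1 to 3, the same as the replicate numbers, and does not explain them. Nothing in the labels tells whether the 3 replicates were different mice or different cultures. The spread behind each p-value is that between libraries, and part of it may be technical. Y-linked transcripts summed to between 131 and 219.6 CPM (counts scaled to an equal library total) in 5 libraries, namely AlloTem 3, SynTem 2, SynTem 3, LPS 3 and DC only 3, and to between 0 and 10.3 CPM in the 7 others. Xist, an RNA made in female cells, was at 138 to 455 CPM in the 5 and at 610 to 1188 CPM in the 7. In DC only and LPS, which had no added T cells, Y-linked transcripts were at 209 and 219.6 CPM in library 3 and at 0 in libraries 1 and 2. Whether library 3 came from mice of another sex was not tested. Transcripts of 20 T cell markers summed to 149 to 309.7 CPM in AlloTem, 299 to 706 CPM in SynTem, 67.4 to 185 CPM in LPS and 61.7 to 103 CPM in DC only.

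To compare levels between genes, the mean CPM over the 12 libraries was divided by the exon length in kilobases, and genes were ranked among 14152 tested genes with an exon length. The 10 genes fell into a high and a low set on this scale. Itgax, the CD11c integrin, had 80.1 CPM per kilobase and ranked above 96.3% of genes, and Sirpa, an inhibitory receptor for CD47, had 75.8. Flt3 had 62.9, Cd209a 60.1, Notch2 55.7 and Itgam 42.8 CPM per kilobase. Zbtb46, a transcription factor of the conventional DC lineage, had 18.7 CPM per kilobase. The other 3 were low: Dtx1 had 1.14, Esam 0.662 and Mgl2 0.638 CPM per kilobase, and Mgl2 ranked above 17.1% of genes. The 3 genes tied most closely to the Notch2-dependent or CD301b+ kinds of cDC2 were thus the low ones. The 22 other cDC2 genes had a median of 34.2 CPM per kilobase and reached 251 for S100a4, and 15 of them lay above Zbtb46. Among them Csf2rb had 126 CPM per kilobase, Csf1r 70.5, Irf4 34.4, Clec10a 9.89 and Cd4 2.70. Transcripts of cDC1 were present as well: the 15 cDC1 markers ran from 0.419 CPM per kilobase for Itgae to 212 for Irf8, with a median of 18.7. Among them Wdfy4 had 121 CPM per kilobase, Clec9a 34.1, Xcr1 8.94 and Cd8a 1.08. The libraries thus held transcripts that mark cDC1 beside those that mark cDC2, and a level given here is that of the whole library.

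**Figure D1:**
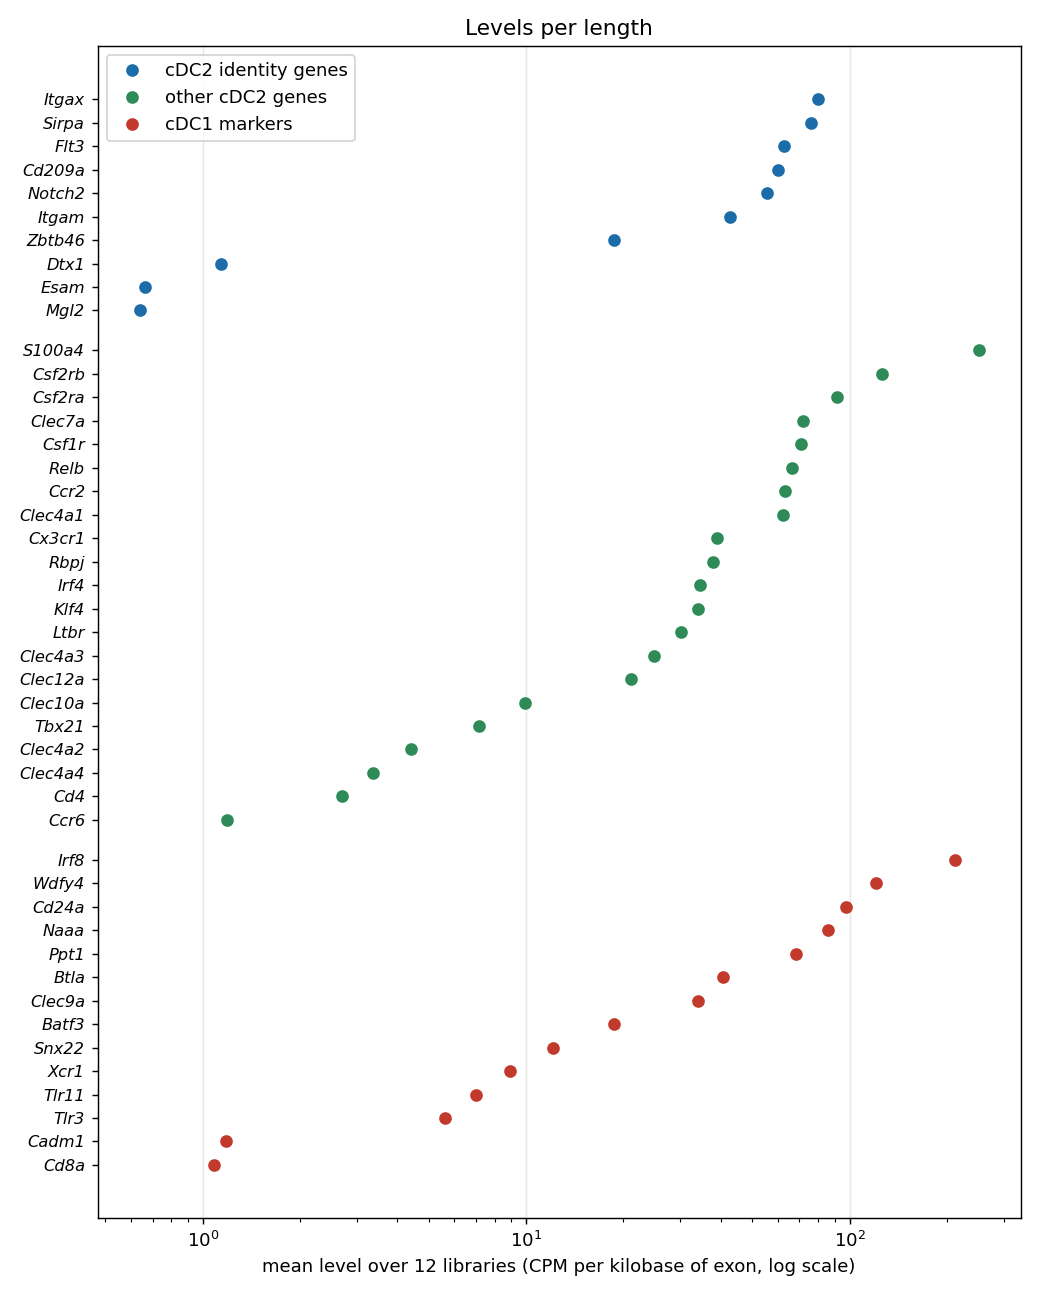
Mean level over the 12 libraries in CPM per kilobase of exon, on a log axis, for the 10 cDC2 identity genes and for those of the other cDC2 genes (21 of 22) and of the cDC1 markers (14 of 15) with at least 1 CPM per kilobase, sorted within each list; each point is 1 gene. Dtx1, Esam and Mgl2 lie near 1 CPM per kilobase, while the other 7 identity genes lie between 18.7 and 80.1.

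The genes lie on several chromosomes of GRCm38. Sirpa (ENSMUSG00000037902) is at chr2:129592835-129632228 and Zbtb46 (ENSMUSG00000027583) at chr2:181387762-181459426. Itgam (ENSMUSG00000030786) and Itgax (ENSMUSG00000030789) are near each other on chromosome 7, at chr7:128062640-128118491 and chr7:128129547-128150657. Dtx1 (ENSMUSG00000029603) is at chr5:120680202-120711927 and Flt3 (ENSMUSG00000042817) at chr5:147330741-147400489. Notch2 (ENSMUSG00000027878) is at chr3:98013527-98150361, Cd209a (ENSMUSG00000031494) at chr8:3743397-3748984, Esam (ENSMUSG00000001946) at chr9:37528078-37538319 and Mgl2 (ENSMUSG00000040950) at chr11:70130329-70137550. All 10 are annotated as protein-coding. Part of the exons of some of these genes is shared with other annotated genes. Of the exon bases of Itgam, 68.7% also belong to Gm49368, a protein-coding gene model on the same strand, to which 1.01 to 7.69 CPM were counted. The sources used here do not tell how reads in shared exons were counted, so the level of Itgam is uncertain in that respect. Of the 50-base stretches in Mgl2 transcripts, 13.1% also occur in other genes, 270 of 2205 of them in Clec10a, and of those in Itgax 8.02% also occur in Itgad. Sirpa, Esam, Cd209a and Zbtb46 had none.

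Promoter sequence, from 250 bases before to 50 bases after the annotated start, was matched by symbol for 8 of the 10 genes (not Sirpa and Esam) in a RefSeq table for GRCm38.p6. They were searched on both strands for GTGGGAA, the core bound by RBPJ, the DNA-binding partner of Notch; for GAGGAA, a core bound by PU.1, a myeloid transcription factor; and for GGAA and GAAA with any 2 bases between them, the composite element bound by PU.1 with IRF4 or IRF8. No member promoter held GTGGGAA, which 6.38% of 32851 promoters in the table hold. GAGGAA was in 3 of 8 member promoters and in 28.3% of all, and the composite element in 1 of 8 and in 2.72% of all. A match is a description of the letters and not of binding. The 4 promoters with a match are printed because Mgl2 and Dtx1 varied together between libraries, because Cd209a holds the composite element, and because Itgam holds 3 matches. They are chr11:70130107-70130406 on the plus strand for Mgl2, chr5:120711620-120711919 on the minus strand for Dtx1, chr8:3748935-3749234 on the minus strand for Cd209a and chr7:128062390-128062689 on the plus strand for Itgam. Each is written 5′ to 3′ on the strand of its gene, with the matches on either strand in capitals.
Mgl2: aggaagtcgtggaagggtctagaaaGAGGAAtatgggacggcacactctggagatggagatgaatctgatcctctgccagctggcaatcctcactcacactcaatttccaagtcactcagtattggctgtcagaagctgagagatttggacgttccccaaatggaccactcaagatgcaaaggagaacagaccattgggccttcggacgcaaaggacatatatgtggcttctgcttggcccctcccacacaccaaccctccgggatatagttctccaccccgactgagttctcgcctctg
Dtx1: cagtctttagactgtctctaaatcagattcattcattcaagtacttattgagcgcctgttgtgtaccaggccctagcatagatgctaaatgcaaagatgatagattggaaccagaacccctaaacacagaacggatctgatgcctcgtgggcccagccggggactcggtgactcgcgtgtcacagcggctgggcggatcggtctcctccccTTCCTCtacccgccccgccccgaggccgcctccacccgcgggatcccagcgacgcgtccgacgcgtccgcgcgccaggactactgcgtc
Cd209a: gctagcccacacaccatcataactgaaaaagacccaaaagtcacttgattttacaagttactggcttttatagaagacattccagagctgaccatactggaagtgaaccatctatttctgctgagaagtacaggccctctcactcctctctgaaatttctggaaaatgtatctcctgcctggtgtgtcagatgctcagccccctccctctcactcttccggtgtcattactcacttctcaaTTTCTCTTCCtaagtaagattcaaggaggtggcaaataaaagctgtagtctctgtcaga
Itgam: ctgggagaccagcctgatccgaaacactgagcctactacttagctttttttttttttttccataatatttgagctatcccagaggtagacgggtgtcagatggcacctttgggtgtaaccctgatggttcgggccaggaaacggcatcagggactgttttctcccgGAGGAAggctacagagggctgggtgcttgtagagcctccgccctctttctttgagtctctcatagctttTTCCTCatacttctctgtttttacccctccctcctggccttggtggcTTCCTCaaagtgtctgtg

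None of the 10 genes was called different between any 2 culture conditions at an adjusted p under 0.05 (edgeR quasi-likelihood test, Benjamini-Hochberg adjustment over all 14413 genes). Between AlloTem and SynTem 0 of 10 were called, where 0.167% of all genes were, and 1 of 10 had an unadjusted p under 0.05, against 9.58% of all genes. Between AlloTem and DC only 0 of 10 were called, against 1.76% of all genes, and 3 of 10 had an unadjusted p under 0.05, against 12.7%. DESeq2 called 1 of the 10 in that comparison, Esam, against 4.70% of all genes, and none in the other comparisons of conditions. Between AlloTem and LPS 0 of 10 were called, against 0.451% of all genes, and 0 had an unadjusted p under 0.05, against 6.50%. Between LPS and DC only 0 of 10 were called, against 0% of all genes, and 1 had an unadjusted p under 0.05, against 3.68%. All 18 mature DC markers had positive estimates there, and 0 of them were called. With no gene called at all, the 0 of 10 does not show that LPS left the 10 genes unchanged. SynTem against DC only and SynTem against LPS gave 0 of 10 each, against 0.0902% and 0.0486% of all genes, and 0 at an unadjusted p under 0.05, against 8.24% and 7.97%. A joint test of any difference among the 4 groups also called 0 of 10, against 1.26% of all genes, with 2 at an unadjusted p under 0.05, against 10.4%. The comparisons share their groups and are not independent of each other.

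The median log2 difference of the 10 genes was 0.16 between AlloTem and SynTem and 0.20 between AlloTem and DC only, where the medians over all genes were -0.01 and 0.00. By group means, 5 of the 10 genes were highest in AlloTem (Sirpa, Esam, Cd209a, Mgl2 and Dtx1), 1 in SynTem (Itgam), 2 in LPS (Zbtb46 and Flt3) and 2 in DC only (Itgax and Notch2). The share of all genes that were highest in AlloTem was not computed, so these counts are only a description. For Sirpa and Cd209a the AlloTem range overlapped that of every other group, and Esam and Mgl2 had few counts. Overlap of ranges sets the batch numbers aside. Within every deposited batch AlloTem was above SynTem for Esam, Cd209a, Mgl2 and Dtx1 and below it for Notch2. Against DC only it was above for Sirpa, Esam, Mgl2 and Dtx1 and below for Notch2 and Zbtb46. For the other genes the sign differed between batches. The share of all genes with the same sign in every batch was not computed. The precision differed widely between genes: the 95% confidence interval of a log2 difference between AlloTem and SynTem was 0.50 wide for the narrowest, Notch2, and 5.07 wide for the widest, Mgl2.

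**Figure D2:**
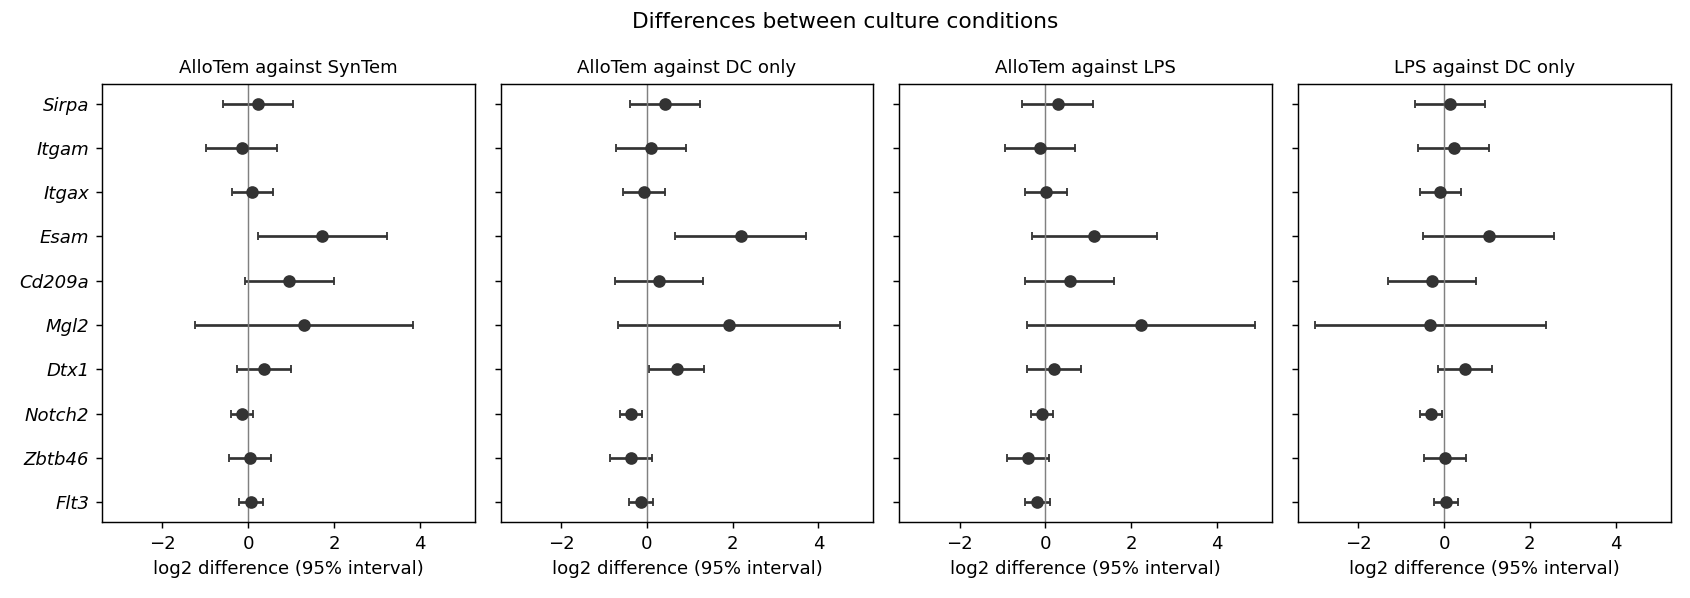
Log2 difference between conditions for each gene from the edgeR fit, in 4 comparisons; points are estimates and bars are 95% confidence intervals, with 3 libraries per group. The intervals of Esam lie above 0 between AlloTem and SynTem (0.22 to 3.24) and between AlloTem and DC only (0.65 to 3.72). That of Dtx1 lies above 0 between AlloTem and DC only (0.06 to 1.33). Those of Notch2 lie below 0 between AlloTem and DC only (-0.63 to -0.12) and between LPS and DC only (-0.55 to -0.05). Those of Sirpa, Itgam, Itgax, Cd209a, Mgl2, Zbtb46 and Flt3 include 0 in all 4 comparisons.

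Among the surface receptors, Sirpa, whose protein SIRPα restrains the cell when it binds CD47, had 597, 422 and 285 CPM in AlloTem libraries 1 to 3 and 609.9, 218 and 291 CPM in SynTem. It had 446, 334 and 291 CPM in LPS and 356, 350.1 and 268 CPM in DC only. Library 1 was the highest of every group and the ranges of all groups overlapped. The log2 difference was 0.22 ± 0.37 between AlloTem and SynTem and 0.42 ± 0.37 between AlloTem and DC only (SE, edgeR adjusted p = 0.899 and 0.745), with a 95% interval of -0.60 to 1.04 for AlloTem against SynTem. Of 10 genes of the SIRP and CD47 pathway, 0 were called in any comparison.

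Itgam, which encodes the CD11b chain of the complement receptor CR3, had 308, 154 and 162 CPM in AlloTem libraries 1 to 3 and 351, 148 and 197 CPM in SynTem. It had 329, 173 and 178 CPM in LPS and 196, 199 and 188 CPM in DC only. The 3 libraries of DC only lay within 12 CPM of each other, while library 1 stood above libraries 2 and 3 in each of the other 3 groups. The log2 difference between AlloTem and SynTem was -0.16 ± 0.37 (SE, edgeR adjusted p = 0.938). Without AlloTem 1 the log2 difference between AlloTem and DC only was -0.30, and with all libraries it was 0.10.

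The 3 libraries with the most Itgam also had the highest levels of Adgre1 and of NK cell markers. Adgre1, which encodes the macrophage marker F4/80, was at 100.2 CPM in AlloTem 1, 117 CPM in SynTem 1 and 61.5 CPM in LPS 1, and between 20.6 and 35.9 CPM in the 9 other libraries. The summed level of 8 NK cell markers was 654, 479 and 659 CPM in those 3 libraries and 211 and 218 CPM in DC only 1 and 2, against 32.5 to 124 CPM in the other 7. The summed level of 17 monocyte and macrophage markers was 646 to 1478 CPM in AlloTem, 521 to 1617 in SynTem, 642 to 1351 in LPS and 552 to 1243 in DC only, and it was at 1572 CPM in SynTem 3, where Itgam was at 197 CPM. Across the 12 libraries log2 CPM of Itgam had a Pearson correlation of 0.91 with Adgre1 and of 0.91 with Itgb2, its partner chain in CR3. Sirpa had 0.89 with Csf1r, the receptor for macrophage growth factor CSF1, which cDC2 also express. These values are descriptions over libraries that share depth and composition, and the part of such cells in the levels of Sirpa and Itgam was not tested.

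Itgax had 435, 440.4 and 288 CPM in AlloTem libraries 1 to 3 and 470.2, 357 and 261 CPM in SynTem. It had 393, 436 and 319 CPM in LPS and 419, 424 and 374 CPM in DC only. Library 3 was the lowest of every group, and the groups overlapped. The log2 difference was 0.10 ± 0.22 between AlloTem and SynTem (SE, 95% interval -0.39 to 0.58, edgeR adjusted p = 0.936). Of 13 genes of the β2 integrin partners, 0 were called between any 2 conditions. With the batch as a block 1 of them, Fcgr2b, an inhibitory Fc receptor, was called in AlloTem against DC only and against LPS (edgeR adjusted p = 0.0378 and 0.0254). Itgb2, the shared β2 chain, had a log2 difference of -0.08 ± 0.31 between AlloTem and SynTem (SE, edgeR adjusted p = 0.962).

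**Figure D3:**
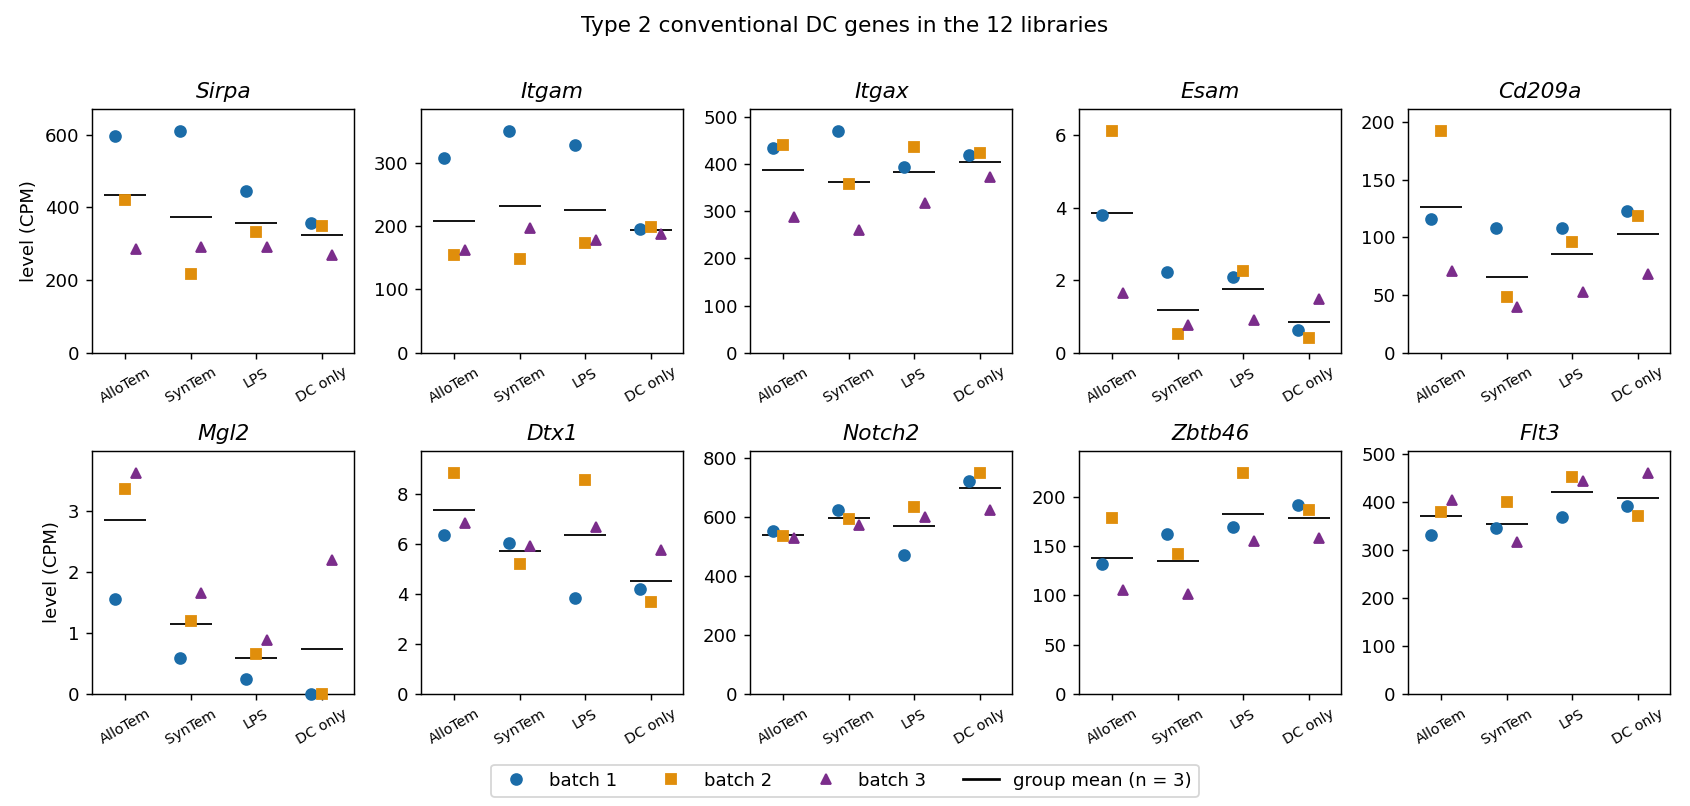
Level of each gene in CPM in the 12 libraries by condition; each point is 1 library, its shape and colour give the deposited batch, and the line is the mean of 3 libraries. Esam, Mgl2 and Dtx1 have their highest group mean in AlloTem and Notch2 its lowest, while batch 3 is the lowest point of all 4 conditions for Itgax.

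In the Notch group, the receptor Notch2 had 553, 536 and 529 CPM in AlloTem libraries 1 to 3 and 623, 592 and 574 CPM in SynTem. It had 471, 632 and 599 CPM in LPS and 723, 749 and 624 CPM in DC only. All 3 AlloTem libraries lay below all SynTem and all DC only libraries, and all SynTem libraries below all DC only libraries, while LPS overlapped each of the other groups. Notch2 averaged 539 ± 12 CPM in AlloTem and 699 ± 66.2 CPM in DC only (SD, n = 3 each). The log2 difference was -0.37 ± 0.11 (SE, 95% interval -0.63 to -0.12, edgeR adjusted p = 0.169), which did not pass the threshold. The log2 difference between LPS and DC only was -0.30 ± 0.11, and that between SynTem and DC only -0.23 ± 0.11 (SE, edgeR adjusted p = 0.999 and 0.642). The 95% interval for AlloTem against SynTem, -0.40 to 0.11, did not include a change of Notch2 by 1 on the log2 scale in either direction. Of all genes, 5.94% had AlloTem below SynTem with no overlap, 7.82% AlloTem below DC only and 6.83% SynTem below DC only.

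Dtx1, which encodes a ubiquitin ligase induced by Notch, had 6.36, 8.83 and 6.85 CPM in AlloTem libraries 1 to 3 and 6.02, 5.19 and 5.93 CPM in SynTem. It had 3.83, 8.55 and 6.67 CPM in LPS and 4.19, 3.66 and 5.73 CPM in DC only. The AlloTem libraries lay above all SynTem and all DC only libraries, and overlapped with LPS. Such a separation upwards was found for 7.09% of all genes between AlloTem and SynTem and for 9.35% between AlloTem and DC only. The log2 difference was 0.70 ± 0.29 between AlloTem and DC only and 0.36 ± 0.29 between AlloTem and SynTem (SE, edgeR adjusted p = 0.338 and 0.727). Dtx1 and Notch2 thus had estimates of opposite sign in AlloTem against DC only, and neither passed the threshold.

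Esam, an adhesion molecule of the immunoglobulin superfamily and the surface marker of the Notch2-dependent cDC2, rested on few counts. It had 80, 123 and 35 raw counts in AlloTem libraries 1 to 3 and 30, 8 and 13 in SynTem, 33, 38 and 16 in LPS and 10, 7 and 30 in DC only. This gave 3.80, 6.10 and 1.65 CPM in AlloTem, 2.23, 0.507 and 0.771 CPM in SynTem, 2.07, 2.26 and 0.896 CPM in LPS and 0.626, 0.400 and 1.47 CPM in DC only. All AlloTem libraries lay above all DC only libraries, and AlloTem 3 lay below SynTem 1. Esam averaged 3.85 ± 2.23 CPM in AlloTem, 1.17 ± 0.928 in SynTem, 1.74 ± 0.738 in LPS and 0.832 ± 0.564 in DC only (SD, n = 3 each). Its log2 difference of 2.19 ± 0.70 between AlloTem and DC only (SE, 95% interval 0.65 to 3.72) was the largest of the 10 genes in that comparison and had an edgeR adjusted p of 0.187. With DESeq2 the difference was 2.21 on the log2 scale with an adjusted p of 0.0423. Between AlloTem and SynTem it was 1.73 ± 0.69 (SE, edgeR adjusted p = 0.451). Single libraries moved these values: leaving out each in turn gave 1.69 (without AlloTem 2) to 2.89 (without DC only 3) against DC only, and 1.23 (without AlloTem 2) to 2.58 (without SynTem 1) against SynTem. In these bulk libraries fewer cells of a type and less RNA per cell cannot be told apart.

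Of 35 other genes of the Notch pathway 32 had enough counts to be tested. Without the batch as a block 2 of them, both ligands, were called in AlloTem against DC only, both higher, against 1.76% of all genes. With the batch as a block 4 were called, with Lfng and Mfng, which modify Notch receptors, added. These 2 had opposite signs in the fit without the block. Between AlloTem and LPS the log2 difference was 0.36 for Lfng and -0.39 for Mfng, and between LPS and DC only 0.23 and -0.11. Dll4, a Notch ligand, had 9.83, 27.4 and 6.18 CPM in AlloTem libraries 1 to 3 and 1.25, 1.94 and 0.980 CPM in DC only, a log2 difference of 3.38 ± 0.66 (SE, edgeR adjusted p = 0.0303). It had 0.892, 2.79 and 1.60 CPM in SynTem and 1.38, 3.98 and 1.74 CPM in LPS, so that the AlloTem libraries lay above all the others. Against SynTem the adjusted p was 0.113 in edgeR and 0.00792 with the batch as a block. Jag1, another ligand, had 15.0, 15.2 and 5.10 CPM in AlloTem and 1.5, 1.14 and 3.04 CPM in DC only, a log2 difference of 2.62 ± 0.51 (SE, edgeR adjusted p = 0.0299). Notch1, the other main receptor in blood cells, had a log2 difference of -0.03 ± 0.26 between AlloTem and DC only (SE, edgeR adjusted p = 0.979), and Rbpj one of -0.01 ± 0.15 (adjusted p = 0.995). Among the classical targets Hes1 had a log2 difference of 0.57 ± 0.75 between AlloTem and DC only (SE, edgeR adjusted p = 0.847). In the other 5 comparisons of conditions 0 of the 32 were called without the block. With it 1, Dll4, was called in AlloTem against SynTem, as given above, and against LPS (edgeR adjusted p = 0.00798).

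Of the lectins, Cd209a, a mouse relative of human DC-SIGN, had 116, 192 and 70.7 CPM in AlloTem libraries 1 to 3 and 108, 48.5 and 39.8 CPM in SynTem. It had 108, 96.3 and 52.5 CPM in LPS and 123, 119 and 67.8 CPM in DC only. Library 3 was the lowest of every group, and AlloTem 2 the highest library of all. Cd209a averaged 126 ± 61.4 CPM in AlloTem and 65.3 ± 37.0 CPM in SynTem (SD, n = 3 each), a log2 difference of 0.95 ± 0.47 (SE, 95% interval -0.08 to 1.99, edgeR adjusted p = 0.551). Against DC only, where it averaged 103 ± 30.7 CPM, the log2 difference was 0.29 ± 0.46 (SE, edgeR adjusted p = 0.876), and it was -0.14 without AlloTem 2.

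Mgl2, a lectin that binds galactose-type sugars, was the member with the fewest counts: 33, 68 and 77 in AlloTem libraries 1 to 3, 8, 19 and 28 in SynTem, 4, 11 and 16 in LPS and 0, 0 and 45 in DC only. This gave 1.57, 3.37 and 3.64 CPM in AlloTem, 0.595, 1.20 and 1.66 CPM in SynTem and 0.251, 0.653 and 0.896 CPM in LPS. DC only had 2.20 CPM in library 3 and 0 in libraries 1 and 2, where a count of 0 allows up to 0.188 and 0.171 CPM (3 counts per library, counting error only). The AlloTem libraries lay above all LPS libraries, which 5.52% of all genes did, and overlapped with SynTem and DC only. Within every deposited batch the AlloTem library lay above that of SynTem and that of DC only. The log2 difference was 2.23 ± 1.20 between AlloTem and LPS and 1.3 ± 1.15 between AlloTem and SynTem (SE, edgeR adjusted p = 0.923 and 0.764). Against DC only it was 1.91 ± 1.17 (SE, edgeR adjusted p = 0.582), and the call depended on DC only 3. Without that library Mgl2 was called in edgeR (adjusted p = 0.0230), as 0.819% of all genes were, against a group then at 0 in both libraries. Those 2 libraries, DC only 1 and 2, were more alike than any other pair of replicates (chi-square of 5.79 per degree of freedom). They may not count as 2 independent samples, so that call is uncertain. Every other call against DC only given here also uses these 2 libraries. Without DC only 2 and SynTem 2, a fit with fewer libraries, the calls over all genes in AlloTem against DC only went from 253 to 16. Whether the other genes named here were among them was not examined. For Mgl2 the library of batch 3 was the highest in every group.

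Some other C-type lectins were called. Of 13 genes listed broadly as CD209 and MGL lectin relatives 7 were tested, and Clec10a and Ly75 rose in AlloTem against DC only. With the batch as a block 3 were called there, with Cd209c added, and 3 in AlloTem against LPS (Cd209c, Cd209e and Clec10a) in place of 1. Clec10a, the neighbouring MGL1 lectin, had 47.9, 52.7 and 47.8 CPM in AlloTem libraries 1 to 3 and 14.5, 15.0 and 26.9 CPM in DC only, a log2 difference of 1.39 ± 0.26 (SE, edgeR adjusted p = 0.0255). It had 28.5, 26.5 and 25.0 CPM in SynTem and 23.9, 13.2 and 21.9 CPM in LPS, all below the AlloTem libraries, with an edgeR adjusted p of 0.230 against SynTem. Ly75, the endocytic receptor DEC-205, had 78.9, 132 and 58.6 CPM in AlloTem and 34.3, 33.1 and 41.9 CPM in DC only, a log2 difference of 1.3 ± 0.26 (SE, edgeR adjusted p = 0.0335). Cd209e, a paralogue of Cd209a, had 4.65, 11.4 and 7.84 CPM in AlloTem and 1.38, 1.25 and 0.504 CPM in LPS, a log2 difference of 2.93 ± 0.51 (SE, edgeR adjusted p = 0.0405). Against SynTem its adjusted p was 0.0694 in edgeR and 0.0410 with the batch as a block. Cd209a itself, with more counts than Cd209e in every library, was not called in any of these comparisons.

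Zbtb46, whose protein is a repressor that marks the conventional DC lineage, had 132, 178 and 105 CPM in AlloTem libraries 1 to 3 and 162, 141 and 102 CPM in SynTem. It had 169, 224 and 155 CPM in LPS and 192, 187 and 158 CPM in DC only. Library 3 was the lowest of every group, and all groups overlapped. Zbtb46 averaged 138 ± 36.9 CPM in AlloTem, 135 ± 30.7 in SynTem, 183 ± 36.6 in LPS and 179 ± 18.2 in DC only (SD, n = 3 each). Its log2 difference was -0.40 ± 0.22 between AlloTem and LPS and -0.37 ± 0.22 between AlloTem and DC only (SE, edgeR adjusted p = 0.939 and 0.569). With the batch as a block the difference from DC only was -0.40 ± 0.13 (SE, edgeR adjusted p = 0.160). Within batches 1 to 3 the log2 ratio of AlloTem to DC only, with 0.5 CPM added to each, was -0.54, -0.07 and -0.59. Between AlloTem and SynTem the log2 difference without the block was 0.03 ± 0.22, with a 95% interval of -0.45 to 0.52.

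Flt3, the receptor for the ligand that the injected cells secreted, had 330.0, 379 and 403 CPM in AlloTem libraries 1 to 3 and 345, 399.6 and 316 CPM in SynTem. It had 369, 452 and 443 CPM in LPS and 392, 370.0 and 461 CPM in DC only. The groups overlapped, and Flt3 had the narrowest spread of the 10 genes over the 12 libraries, 0.54 on the log2 scale. The log2 difference was 0.07 ± 0.13 between AlloTem and SynTem and -0.14 ± 0.13 between AlloTem and DC only (SE, edgeR adjusted p = 0.913 and 0.762). Its interval for AlloTem against SynTem ran from -0.22 to 0.35.

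Some other genes known from cDC2 were called in AlloTem by edgeR. Of 22 such genes, all tested, 1 rose in AlloTem against SynTem and against LPS, where 0.167% and 0.451% of all genes were called. Against DC only 3 rose, where 1.76% of all genes were called. None fell in these comparisons. The 3 were Cd4, Irf4 and Clec10a, and Clec10a is the gene already counted among the lectins above. With the batch as a block the count was 4 against DC only, with Clec7a added, and 3 against LPS, with Cd4 and Clec10a added. Irf4, the transcription factor of the cDC2 lineage, had 358, 477 and 316 CPM in AlloTem libraries 1 to 3 and 101, 121 and 102 CPM in SynTem, a log2 difference of 1.83 ± 0.16 (SE, edgeR adjusted p = 0.00276). It had 76.2, 93.5 and 78.9 CPM in LPS and 111, 102 and 89.0 CPM in DC only, so that the lowest AlloTem library was above the highest of all others. Activated T cells express Irf4 too. The summed T cell markers were at 309.7, 179.8 and 149 CPM in AlloTem libraries 1 to 3 and at 299, 706 and 568 CPM in SynTem, so that AlloTem 1 lay above SynTem 1. Their part in the level of Irf4 was not tested. Cd4, carried by many spleen cDC2 and by T cells, rose in AlloTem against DC only by 1.96 ± 0.35 and in SynTem against DC only by 3.11 ± 0.36 (log2, SE, edgeR adjusted p = 0.0232 and 0.0161). Of 20 T cell markers 8 rose in AlloTem and 7 in SynTem against DC only, and that list includes Cd4. Of the Flt3 and DC lineage factors, Nfil3, a transcription factor of DC development, rose in AlloTem against SynTem by 1.65 ± 0.21 (log2, SE, edgeR adjusted p = 0.0126). Of 15 cDC1 markers 1, Snx22, fell in AlloTem against DC only (log2 difference -1.43 ± 0.29, SE, edgeR adjusted p = 0.0353), and 0 were called between AlloTem and SynTem. With the batch as a block 3 were called against DC only, with Clec9a and Tlr3 added, and 1, Snx22, against LPS. Of 18 mature DC markers 2, Cd274 and Socs2, rose in AlloTem against DC only. Of the 12 pDC, 16 monocyte and macrophage, 12 neutrophil, 8 B cell and 8 NK cell markers tested, 0 were called between any 2 conditions, and with the batch as a block 2 B cell markers, Blk and Cd79b, were called in AlloTem against DC only (edgeR adjusted p = 0.0286 and 0.0407).

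Batch 3 was set against batches 1 and 2 in a fit with group and batch. This contrast was chosen because earlier results of these data had set batch 3 apart. Its p-values are therefore not those of a contrast fixed in advance. Cd209a averaged 57.7 ± 14.4 CPM in batch 3, against 114 ± 7.33 CPM in batch 1 and 114 ± 59.8 CPM in batch 2 (SD, n = 4 each), a log2 difference of -0.97 ± 0.22 (SE, edgeR adjusted p = 0.0609). Itgax averaged 310.3 ± 48.4 CPM in batch 3, against 429.5 ± 32.2 and 415 ± 38.8 CPM in batches 1 and 2, a log2 difference of -0.45 ± 0.10 (SE, edgeR adjusted p = 0.0603). Zbtb46 had a log2 difference of -0.43 ± 0.10 and Sirpa one of -0.51 ± 0.18 (SE, edgeR adjusted p = 0.0603 and 0.116). Mgl2 went the other way, with 2.10 ± 1.16 CPM in batch 3, against 0.603 ± 0.687 and 1.31 ± 1.46 CPM in batches 1 and 2 (SD, n = 4 each) and a log2 difference of 1.80 ± 0.71 (SE, edgeR adjusted p = 0.147). In edgeR 0 of the 10 were called, against 0% of all genes, and 5 had an unadjusted p under 0.05, against 27.6% of all genes. DESeq2 called those 5, against 13.8% of all genes. Without SynTem 2, edgeR called Sirpa, Itgax, Cd209a and Zbtb46 (adjusted p between 0.00242 and 0.0106), and then called 3207 of all genes, or 21.6%.

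SynTem 2 belongs to batch 2 but held Y-linked transcripts at 175 CPM, as the libraries of batch 3 did. Its deviations from the group mean correlated with those of the batch 3 libraries of other groups at 0.44 on average and with those of batch 2 at -0.12. DC only 2 correlated at 0.25 with batch 1 and at -0.0057 with batch 2. Whether the deposited batch numbers of these 2 libraries are right cannot be told from the labels. The batch contrast and the values with the batch as a block, such as those of Dll4 and Cd209e, use the numbers as deposited. When the 5 libraries with Y-linked transcripts were set beside the 7 others, a division made after seeing the data, 3 of the 10 genes were lower with no overlap, against 4.90% of all genes. Cd209a was at 39.8 to 70.7 CPM in the 5 libraries and at 96.3 to 192 CPM in the 7 others. Sirpa was at 218 to 291 CPM in the 5 and at 334 to 609.9 CPM in the 7. Itgax was at 261 to 374 CPM in the 5 and at 393 to 470.2 CPM in the 7. The ranges of the other 7 genes overlapped. The median log2 difference between batch 3 and batches 1 and 2 was -0.87 over 18 mature DC markers and -2.27 over 8 NK cell markers, where it was -0.37 over the 10 genes and 0.01 over all genes. What the batches and these transcripts stand for was not tested.

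**Figure D4:**
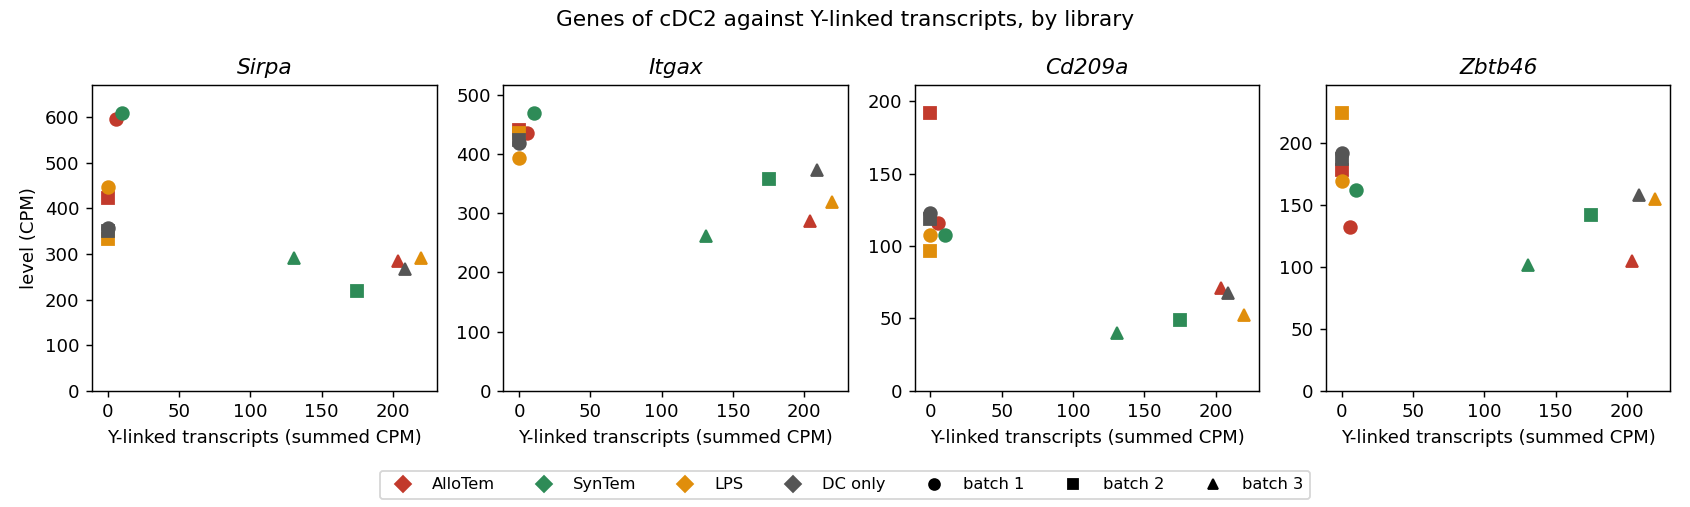
Level of 4 genes in CPM against the summed CPM of Y-linked transcripts; each point is 1 of 12 libraries, with colour for the condition and shape for the deposited batch. Sirpa, Itgax and Cd209a are lower in all 5 libraries with Y-linked transcripts than in any of the 7 others, and Zbtb46 overlaps.

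Some of the 10 genes varied together over the 12 libraries, given here as Pearson correlations of log2 CPM and, after subtraction of the batch means, in a second value. Libraries share depth, composition and batch, so the values are descriptions. Itgax and Cd209a had 0.82 and 0.60, Itgax and Zbtb46 0.78 and 0.67, and Sirpa and Itgam 0.81 and 0.59. Correlations were also positive among the 3 low genes, of which Mgl2 and Dtx1 have their promoters printed above. Esam and Dtx1 had 0.63 and 0.82, Mgl2 and Dtx1 0.75 and 0.75, and Esam and Mgl2 0.53 and 0.80. Notch2 ran against Mgl2, with -0.61 and -0.70, and against Esam, with -0.59 and -0.62.

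**Figure D5:**
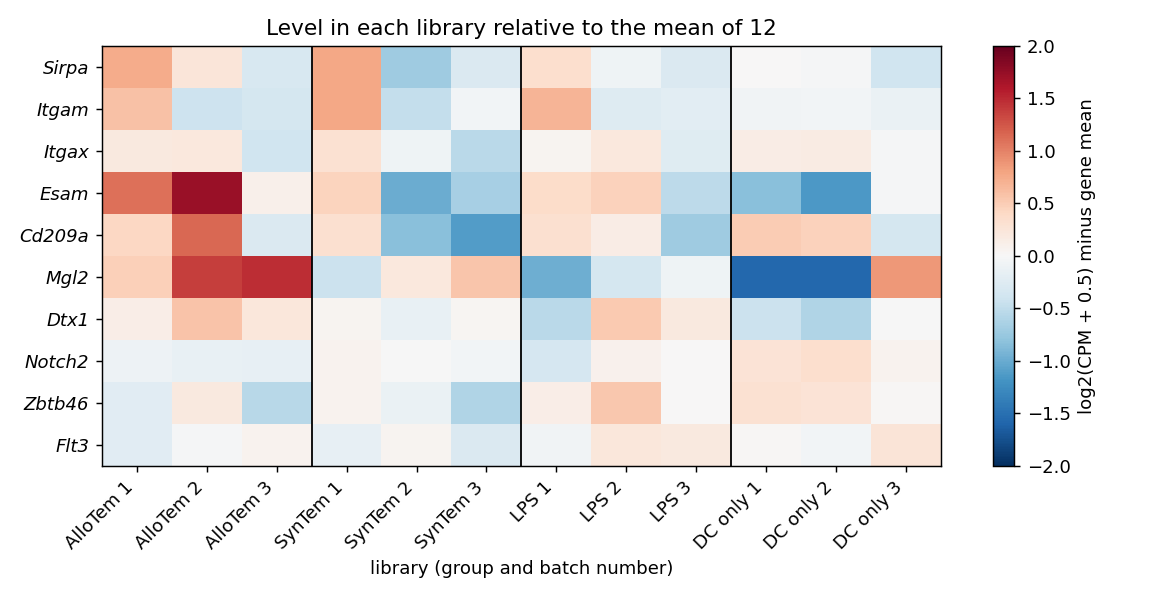
Level of each gene in each library as log2(CPM + 0.5) minus the mean of that gene over the 12 libraries; rows are genes and columns are libraries, named by group and batch number. Esam and Mgl2 vary most, Sirpa and Itgam are high in library 1 of AlloTem, SynTem and LPS, and Flt3 and Notch2 vary little.

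Mgl2 and Esam had the widest ranges over the libraries, 5.06 and 3.60 on the log2 scale, and were compared with 9717 other genes with a mean of at least 5 CPM. The genes most like Mgl2 were Spint1, with a Pearson correlation of 0.970 over the 12 libraries, Fmnl3 with 0.939 and Snrnp70 with 0.922. After subtraction of the batch means they were St6gal1 with 0.982, Zranb3 with 0.973 and Spint1 with 0.960. Those most like Esam were Csnk1d with 0.951, Dhrs3 with 0.950 and Ankrd33b with 0.942, and after subtraction Srp54b with 0.985, Mreg with 0.975 and Basp1 with 0.970. These genes were picked as the highest of 9717 correlations, and no test was made. Mgl2 had 0 counts in DC only 1 and 2, and Esam had 7 in DC only 2. The ranges and correlations of these 2 genes therefore depend on the prior count of 2.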

How the data were processed

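Gene expression was measured by RNA sequencing (TruSeq RNA libraries, single-end reads, per the labels' protocols) in 12 libraries, 3 in each of 4 groups. The table the authors deposited holds raw counts, whole numbers with no normalization, for 57009 Ensembl identifiers, and a second one holds batch numbers. Reads were mapped to mm10 per the submitters' processing notes. The strand setting, annotation, counting tool and aligner are not given in the sources used. GENCODE M21 (GRCm38) gave symbols for 52080 identifiers, and the other 4929 held 0.754% of counts.

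Genes passed filterByExpr (minimum count 10, minimum total 15), were scaled by TMM and tested by the robust quasi-likelihood method of edgeR 4.0.16 (R 4.3.3), in a model of 4 group means over all 12 libraries. P-values were adjusted by Benjamini-Hochberg over 14413 genes and called under 0.05. CPM use TMM library sizes, and log2 CPM for correlations a prior count of 2. Standard errors are the log2 difference divided by the root of the F statistic. The batch contrast came from a fit with group and batch. DC only 1 and 2 were more alike than other replicates, with a chi-square of 5.79 per degree of freedom, against 25.2 to 78.8 in the 11 other pairs, and differed beyond sampling noise.

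Batch numbers pair the libraries because they were deposited as batches. As a check, deviations from group means had a median correlation of 0.247 over 18 pairs with the same number (12 above 0.1) and of -0.201 over 36 other pairs. SynTem 2 and DC only 2 were more like another number than their own, so the pairing is uncertain for them. Alternatives were RLE scaling, no filter, DESeq2 1.42.0, the batch as a block, only the 2 groups compared, each library left out in turn, and DC only 2 and SynTem 2 left out together. A Y-linked covariate was chosen after seeing the data. All 10 genes are named. From each of 14 other lists, up to 3 called genes with the largest change and a mean of at least 1 CPM, or the one with the smallest p, could be named, and the text leaves out some. Other genes, such as Notch1, Rbpj, Hes1, Itgb2 and Adgre1, were named for their role. The 10 genes and the lists were chosen with earlier results of these data known. The scripts were tested on simulated counts.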

Additional observations from a re-analysis of the deposited data

How the results depend on the processing

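None of the 10 cDC2 genes was called between conditions under RLE scaling, without the filter, with the replicate block, with only the 2 groups compared, with the Y-linked covariate (added after seeing the data) or without DC only 2 and SynTem 2. The exceptions were 1 gene in AlloTem against DC only with DESeq2 (Esam), and, over leaving out each library, 0 to 1 gene in AlloTem against DC only and 0 to 1 in the joint test (without DC only 3). For batch 3 against batches 1 and 2 the count was 1 without the filter (Itgax), 5 with DESeq2, 4 without DC only 2 and SynTem 2, and 0 to 4 over single libraries (Itgam and Itgax, 2, without DC only 1). The count over all genes moved far more. For AlloTem against SynTem (24) it was 41 without the filter, 318 with DESeq2, 78 with the replicate block, 0 with only the 2 groups, 2 without DC only 2 and SynTem 2, 39 with the Y-linked covariate and 3 to 47 over single libraries. In the same order, where the count moved by over 1.5 times, AlloTem against DC only (253) gave 676 with DESeq2, 420 with the block, 98 with 2 groups, 16 without both libraries, 603 with the covariate and 42 to 323 over single libraries. AlloTem against LPS (65) gave 288 with DESeq2, 136 with the block, 9 with 2 groups, 25 without both, 189 with the covariate and 9 to 67 over single libraries. LPS against DC only (0) gave 10 with DESeq2, 1 without both and 0 to 1 over single libraries. SynTem against DC only (13) gave 33 without the filter, 254 with DESeq2, 21 with the block, 1 with 2 groups, 1 without both, 44 with the covariate and 0 to 56 over single libraries. SynTem against LPS (7) gave 16 without the filter, 198 with DESeq2, 28 with the block, 0 with 2 groups, 0 without both, 38 with the covariate and 0 to 37 over single libraries. The joint test (181) gave 770 with DESeq2, 299 with the block, 27 without both, 384 with the covariate and 69 to 215 over single libraries. The batch contrast (0) gave 211 without the filter, 1994 with DESeq2, 2917 without both and 0 to 3207 over single libraries. The cause of these moves was not tested. Fits that left libraries out also had fewer libraries.

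Estimates near 0 changed sign in some settings, and ranges here are over leaving out libraries. For AlloTem against SynTem the log2 difference was -0.077 to 0.78 for Sirpa (-0.052 without DC only 2 and SynTem 2), -0.55 to 0.27 for Itgam, -0.087 to 0.33 for Itgax, -0.19 to 0.21 for Zbtb46 and -0.0024 to 0.17 for Flt3. With the Y-linked covariate it was -0.053 for Itgax and -0.13 for Zbtb46. For AlloTem against DC only it was -0.30 to 0.27 for Itgam and -0.013 with the replicate block, -0.17 to 0.12 for Itgax and -0.14 to 0.59 for Cd209a. For batch 3 against batches 1 and 2 it was -0.045 to 0.28 for Dtx1, lowest without DC only 2 and SynTem 2, and -0.12 to 0.0022 for Notch2. Over 19 settings, 1225 of 1300 values of the 10 genes kept their sign and their side of the threshold, 18 passed it newly and 57 changed sign. The block changed no other call on the 10 genes. Depth limits Esam and Mgl2 most, with 7 to 123 and 0 to 77 counts per library.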
